A study of Homo sapiens with 6 samples.

Results

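The neural matrix genes described here are 10 genes of the extracellular matrix of the nervous system, taken by name from the 57820 genes of a table of raw counts. They are the lecticans VCAN, NCAN, BCAN and ACAN, the link proteins HAPLN1 and HAPLN4, the tenascins TNC and TNR, the receptor phosphatase PTPRZ1, and RELN. All 10 matched 1 gene each in the table. RNA had been sequenced from motor neurons made from the established human embryonic stem cell line H9, of wild-type genotype, by differentiating motor neuron progenitors with retinoic acid and the Hedgehog agonist SAG. The 3 libraries of the simulated microgravity group (SMG) came from cells on a 2D clinostat, which rotates the culture so that gravity acts from ever-changing directions, and the 3 libraries of the normal gravity group (NG) came from cells that were not. Both groups come from 1 cell line, the sources used here do not give the length of the exposure, and a clinostat changes the direction of gravity without removing it.

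Lecticans are chondroitin sulfate proteoglycans that bind the sugar chain hyaluronan at one end and tenascins at the other. Link proteins lock the lectican to hyaluronan, so that the whole forms a hydrated mesh around neural cells, which loosens or condenses as the nervous system matures. Versican is abundant around immature neural cells and in the path of growing axons, and the link proteins are known from the perineuronal nets of mature neurons, including spinal motor neurons. PTPRZ1 is a phosphatase of radial glia and glial precursors whose outer part carries the same sugar chains, and reelin is a large secreted glycoprotein that guides the placement of migrating neurons.

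The deposited counts summed to between 16329907 and 22685870 per library, and no pair of libraries within a group agreed to within sampling noise. Levels are given as CPM, a gene's count as a share of all counts in its library, after TMM scaling, which evens out differences in library composition, as mean ± SD with n = 3 per group. Differences are log2 fold changes, SMG minus NG, ± SE. A gene passed when its adjusted p in edgeR's quasi-likelihood test, fitted over all tested genes with Benjamini-Hochberg adjustment, was below 0.05, and all adjusted p-values of single genes are from that test unless another is named. Since no label ties the libraries to separate cultures, the p-values cover the spread among these 6 libraries alone, and that spread may be technical.

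Windows of 250 bases before the annotated start were read from RefSeq promoters on GRCh38.p14, which is not the build named for the counts, so these positions are not tied to any read. The table held 8 of the 10 genes and lacked NCAN and TNR, which passed the test in the same direction as RELN. The windows of VCAN, PTPRZ1 and RELN are shown because these genes passed the test, VCAN and PTPRZ1 in one direction and RELN in the other. They lie at chr5:83471494-83471743 on the plus strand, chr7:121872911-121873160 on the plus strand and chr7:103989659-103989908 on the minus strand, and each is written 5′ to 3′ along its gene. Capitals mark matches, on either strand, to any of 5 short motifs. These are the GC box GGGCGG, the CCAAT box, the TATA box read as TATAAA, and the forms ACGTG or else GCGTG of the core of sites for hypoxia-inducible factors.
VCAN: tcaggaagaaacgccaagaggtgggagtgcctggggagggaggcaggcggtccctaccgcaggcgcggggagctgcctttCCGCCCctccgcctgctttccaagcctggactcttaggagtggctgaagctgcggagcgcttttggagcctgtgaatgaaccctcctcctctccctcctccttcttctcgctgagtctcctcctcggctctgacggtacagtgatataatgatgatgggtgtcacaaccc
PTPRZ1: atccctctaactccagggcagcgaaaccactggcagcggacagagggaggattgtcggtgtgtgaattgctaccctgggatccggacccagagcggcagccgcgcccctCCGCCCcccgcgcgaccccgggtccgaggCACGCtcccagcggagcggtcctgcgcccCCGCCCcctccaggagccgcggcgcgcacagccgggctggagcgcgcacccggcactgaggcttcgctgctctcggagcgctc
RELN: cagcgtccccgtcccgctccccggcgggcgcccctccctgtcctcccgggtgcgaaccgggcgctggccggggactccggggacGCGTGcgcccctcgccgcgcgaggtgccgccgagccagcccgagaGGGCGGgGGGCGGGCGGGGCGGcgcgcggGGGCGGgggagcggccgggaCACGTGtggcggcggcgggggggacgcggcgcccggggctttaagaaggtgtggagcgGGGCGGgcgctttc

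The VCAN window held 1 match to GGGCGG and none to the other letters. The PTPRZ1 window held 2 matches to GGGCGG and 1 to GCGTG. RELN had the densest window, with 6 matches to GGGCGG, 2 to ACGTG that overlap in a palindrome 72 bases before the start, and 1 to GCGTG, and some of its GC boxes overlap. Of 27305 windows of the same length, 42.3% held GGGCGG, 33% held CCAAT, 11.1% held TATAAA, 18.7% held ACGTG and 31.9% held GCGTG. The share of G and C was 60.8% in the VCAN window, 73.2% in that of PTPRZ1 and 83.2% in that of RELN, beside a median of 58% over all windows. A match is a run of letters and not a known binding site.

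The comparison of SMG with NG asks how the matrix genes of these neurons differ when gravity is averaged out by rotation. VCAN and PTPRZ1, which were among the 3 highest of the set, were lower in SMG by 1.31-fold and 1.16-fold. NCAN, RELN and TNR were higher by 1.46-fold, 1.37-fold and 1.27-fold. BCAN did not pass, and ACAN, TNC, HAPLN1 and HAPLN4 had too few counts to be tested. Of the 6 tested members, 3 rose and 2 fell, where 17.3% of all 17803 tested genes rose and 18.5% fell. The groups did not overlap in 5 of the 6, beside 46.3% of all tested genes. The median log2 fold change of the 6 was 0.15, and that of all tested genes was -1.8e-04. In these bulk libraries, a smaller number of cells that make a transcript and less of it per cell cannot be told apart.

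**Figure D1:**
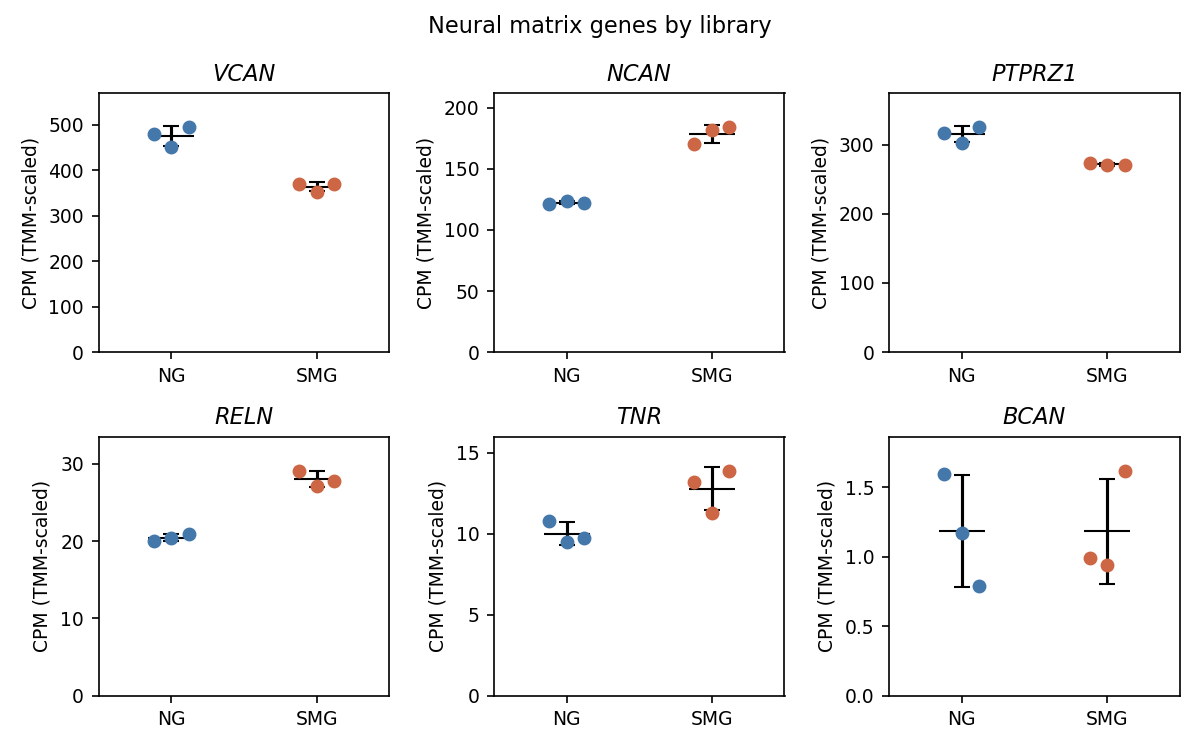
Each panel plots the level of 1 gene in CPM after TMM scaling, from 0, with a point per library (NG blue, SMG orange) and the group mean with its SD as a bar. VCAN and PTPRZ1 lie lower in the 3 SMG libraries than in any NG library, NCAN, RELN and TNR lie higher, and BCAN overlaps.

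VCAN encodes versican, the largest lectican, which is found well beyond the nervous system. Its level was 481, 451 and 495 CPM in the NG libraries and 371, 352 and 370 CPM in the SMG libraries. Every SMG library was below every NG library. VCAN fell from 476 ± 22.6 to 364 ± 10.6 CPM (log2 fold change -0.39 ± 0.04, edgeR adjusted p = 1.46e-09). Versican is made in splice forms that differ in the exons carrying the sugar chains, and counts per gene do not separate them. An antisense gene, VCAN-AS1, shares 3.05% of the VCAN exon bases in GENCODE 29 and had between 35 and 53 counts per library, against at least 7315 for VCAN.

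NCAN encodes neurocan, a lectican of the nervous system made largely by neurons. Its level was 121, 124 and 122 CPM in NG and 170, 182 and 184 CPM in SMG, so the NG libraries lay close together and all SMG libraries were well above them. NCAN rose from 122 ± 1.46 to 179 ± 7.75 CPM (0.55 ± 0.04, edgeR adjusted p = 2.67e-12). This was the largest difference among the 6 tested members in either direction.

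BCAN encodes brevican, a lectican of glia and of mature nervous tissue. Its level was 1.60, 1.17 and 0.792 CPM in NG and 0.991, 0.943 and 1.62 CPM in SMG, from 13 to 37 counts per library. The groups overlapped fully, and the difference was -0.04 ± 0.27 (edgeR adjusted p = 0.933, 95% interval from -0.59 to 0.52). A rise of the size seen for NCAN was therefore just outside this interval. A fall of that size, or of the size seen for VCAN, was within it. A pair of antisense genes share 7.18% and 6.65% of the BCAN exon bases and had at most 6 counts each per library. ACAN encodes aggrecan, the lectican of cartilage and perineuronal nets. It had 0, 1 and 5 counts in NG and 7, 7 and 6 in SMG, below the level at which genes were tested, and without a filter on low counts its edgeR adjusted p was 0.153.

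Levels of different genes were compared per length, as CPM per kb of the longest annotated transcript, a scale on which VCAN stood at 37.7 ± 1.79 in NG and 28.8 ± 0.838 in SMG. NCAN stood at 19.2 ± 0.229 and 28.0 ± 1.21 on that scale. The VCAN libraries lay from 27.9 to 29.4 in SMG and the NCAN libraries from 26.6 to 28.9, so the levels of these lecticans overlapped in SMG and were apart in NG. The 4 lecticans together came to 57.2 ± 1.59 CPM per kb in NG and 57.2 ± 1.24 in SMG (exact permutation test over libraries, two-sided, p = 0.9). NCAN made up 33.0%, 35.0% and 32.7% of this sum in the NG libraries and 47.3%, 50.3% and 49.2% in the SMG libraries. Its share was 33.5% ± 1.29 and 48.9% ± 1.54 (exact permutation test, two-sided, p = 0.1, the smallest that 3 libraries against 3 can give). BCAN and ACAN stayed under 1% of the sum in each library. The sum rests on the longest transcript of each gene, and counts per gene do not separate shorter splice forms of VCAN. In CPM, VCAN fell from 476 to 364 and NCAN rose from 122 to 179, so the equal sum holds per length and not in CPM. These sums and shares were not corrected for a trend with the length and GC content of transcripts. With that trend removed, the log2 fold change of NCAN was 0.43 in place of 0.55. That of VCAN was -0.38 in place of -0.39.

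**Figure D2:**
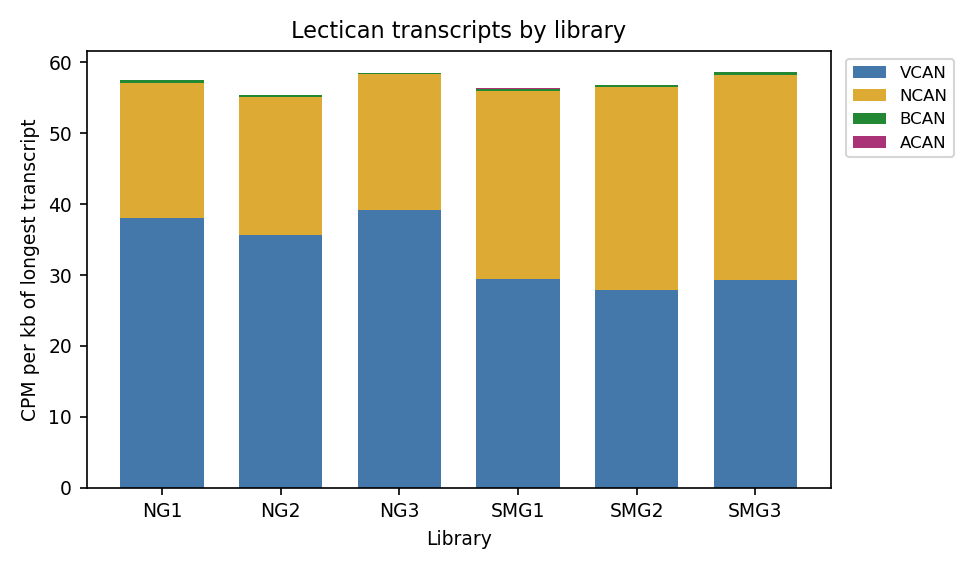
Bars give the level of the 4 lecticans in each library, stacked, in CPM per kb of the longest transcript. The summed height is alike in NG and SMG on this scale, the NCAN part is larger in the 3 SMG libraries, and BCAN and ACAN are barely visible.

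Each lectican gene has a link protein gene as its neighbour among coding genes: HAPLN1 beside VCAN, HAPLN4 beside NCAN, HAPLN2 beside BCAN and HAPLN3 beside ACAN in the RefSeq annotation. The 2 link protein members were close to absent from the counts although their neighbours were the most abundant lecticans. HAPLN1 had 0 counts in the 3 NG libraries and 0, 1 and 1 in SMG. HAPLN4 had 0 counts in all 6, which allows a level of up to 0.131 to 0.185 CPM depending on the library, for counting error only. In GENCODE 29 another gene on the same strand shares 96.6% of the HAPLN4 exon bases, and the sources used here do not say how reads that fit 2 genes were counted. The count of 0 is therefore uncertain, and that other gene had 0 or 1 counts in each library. HAPLN2, at 2.12 ± 0.304 CPM in NG and 2.32 ± 0.407 in SMG, and HAPLN3, at 1.56 ± 0.565 and 1.44 ± 0.167, were detected in all libraries, and neither passed (edgeR adjusted p = 0.585 and 0.698).

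Tenascins are large glycoproteins that join lecticans into the mesh. TNR, the form restricted to the nervous system, was at 10.8, 9.48 and 9.75 CPM in NG and 13.2, 11.3 and 13.9 CPM in SMG. The lowest SMG library was only slightly above the highest NG library. TNR rose from 10.03 ± 0.720 to 12.8 ± 1.37 CPM (0.35 ± 0.09, edgeR adjusted p = 0.00473), and its adjusted p was 0.0477 without SMG replicate 3, the highest over 17 alternatives, which ranged from 0.00120. TNC, the tenascin of radial glia, developing tissue and wounds, had 6, 2 and 6 counts in NG and 10, 9 and 6 in SMG. It was not tested, and without a filter its edgeR adjusted p was 0.594.

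PTPRZ1, a receptor for tenascins, contactin and the growth factors pleiotrophin and midkine, was at 317, 302 and 325 CPM in NG and 274, 270 and 270 CPM in SMG. The SMG libraries were close to one another and below all NG libraries. PTPRZ1 fell from 315 ± 11.5 to 272 ± 2.29 CPM (-0.21 ± 0.03, edgeR adjusted p = 1.11e-05), the smallest of the 5 differences that passed. RELN was at 20.0, 20.4 and 20.9 CPM in NG and 29.1, 27.1 and 27.8 CPM in SMG, with a wide gap between the groups. RELN rose from 20.4 ± 0.438 to 28.0 ± 1.04 CPM (0.45 ± 0.06, edgeR adjusted p = 1.11e-06).

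Per kb of transcript, PTPRZ1 (38.5 ± 1.41 CPM per kb) and VCAN were the highest in NG and did not differ beyond their spread. NCAN followed, then RELN at 1.77 ± 0.0378, TNR at 0.774 ± 0.0556 and BCAN at 0.343 ± 0.117, each apart from the next in every NG library. TNC (0.0337 ± 0.0161) and ACAN (0.0136 ± 0.0180) overlapped at the bottom. HAPLN1 and HAPLN4 had 0 counts in NG, as did ACAN in NG replicate 1. In SMG the order was PTPRZ1 at 33.2 ± 0.281, then VCAN and NCAN, which overlapped, then RELN at 2.42 ± 0.0897, TNR at 0.989 ± 0.106 and BCAN at 0.342 ± 0.109. TNC (0.0497 ± 0.0140) and ACAN (0.0338 ± 0.00395) overlapped again. With the summed length of all annotated exons in place of the longest transcript, VCAN was at 24.5 ± 0.714 and NCAN at 25.9 ± 1.12 CPM per kb in SMG, so the order of that pair depends on the length used.

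The members that fell had transcripts with a lower share of G and C (VCAN 42.9%, PTPRZ1 41.9%) than those that rose (RELN 47.0%, TNR 48.3%, NCAN 56.1%). When the dependence of each library on the length and GC content of transcripts was removed, VCAN was at -0.38, PTPRZ1 at -0.19, RELN at 0.42, TNR at 0.29 and NCAN at 0.43, and all 5 still passed (edgeR adjusted p from 4.35e-12 for NCAN to 0.0131 for TNR). BCAN was at -0.19 under that correction and did not pass (edgeR adjusted p = 0.635).

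**Figure D3:**
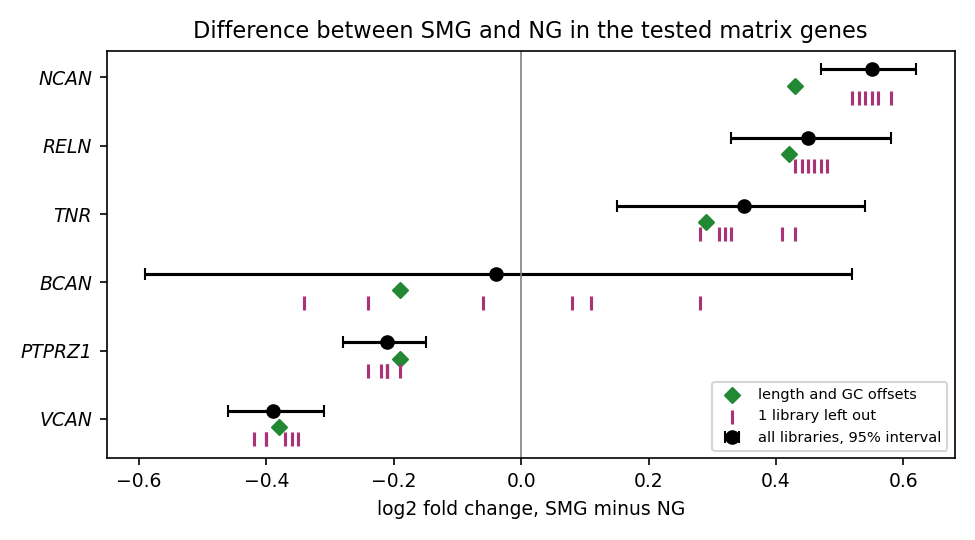
Log2 fold changes of the 6 tested members, SMG minus NG. Circles with bars are the values with 95% intervals, diamonds the values after removal of the trend with length and GC content, and ticks the values with 1 library left out. The 5 members that passed stay on 1 side of 0 under each of these, and BCAN crosses it.

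Partner genes were grouped into 6 lists of 79 genes, of which 68 were tested. Of these, 13 rose and 15 fell, beside the 35.8% of all tested genes that changed in either direction (17.3% rose and 18.5% fell). With the trend of length and GC content removed, 6 rose and 15 fell, where 2719 of all 17803 tested genes rose and 2765 fell. CNTN1 and ITGB1 were then no longer among those that fell, and other partner genes, not named here, passed as lower in their place. The median log2 fold change over the 68 was 0.01.

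**Figure D4:**
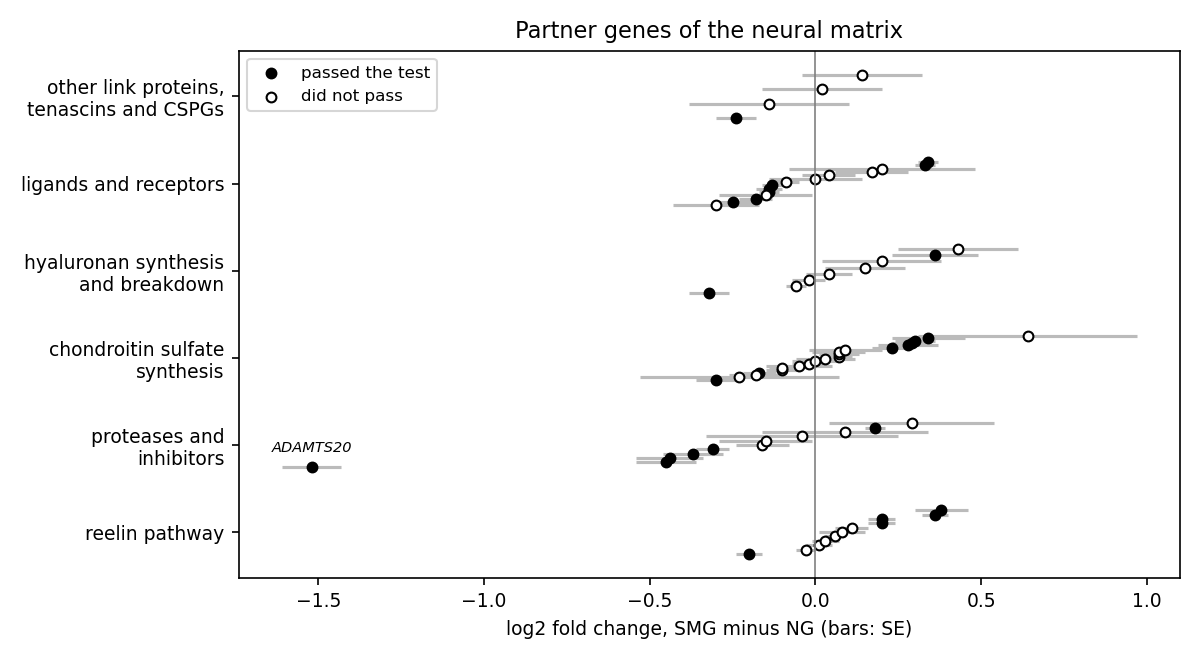
Log2 fold changes of the 68 tested partner genes, SMG minus NG, with SE bars, by list. Filled points passed the test and open points did not, and most lie within 0.5 of 0, with ADAMTS20 far to the left at -1.52.

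Among 11 tested genes of proteases that cut lecticans and of their inhibitors, 5 fell and 1 rose (median -0.16). Over all tested genes, 18.5% fell and 17.3% rose. ADAMTS20, a secreted metalloprotease that can cleave versican, had the largest difference of all partner genes. Its level was 18.2, 16.9 and 16.3 CPM in NG and 5.57, 6.15 and 6.26 CPM in SMG, so every SMG library was far below every NG library. ADAMTS20 fell from 17.2 ± 1.0 to 5.99 ± 0.372 CPM (-1.52 ± 0.09, edgeR adjusted p = 2.01e-13). The versican-cleaving ADAMTS1 fell from 14.5 ± 1.22 to 10.6 ± 1.19 CPM (-0.45 ± 0.09), and ADAMTS9, a close relative of ADAMTS20, from 11.8 ± 1.55 to 8.76 ± 0.787 CPM (-0.44 ± 0.10). ADAMTS4 and ADAMTS5, the aggrecanases, did not pass, at 0.29 ± 0.25 and -0.15 ± 0.14. Of the metalloprotease inhibitors, TIMP1 (-0.37 ± 0.09) and TIMP3 (-0.31 ± 0.05) fell and TIMP2 rose (0.18 ± 0.03), and all 3 also passed with the trend of length and GC content removed (-0.42, -0.32 and 0.13).

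The list of ligands and receptors had 5 lower and 2 higher of 14 tested genes (median -0.11), beside 18.5% and 17.3% of all tested genes. PTPRS, a receptor for the chondroitin sulfate chains of lecticans, rose from 535 ± 25.8 to 677 ± 11.2 CPM (0.34 ± 0.03, edgeR adjusted p = 8.22e-09), or by 0.14 with the trend of length and GC content removed. NFASC, an adhesion molecule of the axon initial segment and nodes, rose from 217 ± 1.30 to 272 ± 6.27 CPM (0.33 ± 0.03), or by 0.19 with that trend removed. Of the partners of PTPRZ1, the ligand midkine, MDK, fell from 187 ± 6.73 to 169 ± 3.11 CPM (-0.14 ± 0.04, edgeR adjusted p = 0.00250), or by 0.24 with the trend removed. CNTN1, a contactin that binds PTPRZ1 and TNR, fell from 64.2 ± 1.98 to 56.9 ± 2.62 CPM (-0.18 ± 0.05) and did not pass with the trend removed (-0.11, edgeR adjusted p = 0.0619). EGFR (-0.25 ± 0.06), NRCAM (-0.14 ± 0.03) and ITGB1 (-0.13 ± 0.03) also fell, and ITGB1 did not pass with the trend removed (-0.04, edgeR adjusted p = 0.446). PTN, the ligand pleiotrophin, was at 4.86 ± 0.945 and 4.43 ± 0.532 CPM (-0.15 ± 0.14, edgeR adjusted p = 0.418). CD44, a hyaluronan receptor, had 0 counts in 5 libraries and 2 in SMG replicate 3.

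Chondroitin sulfate synthesis had 5 higher and 2 lower of 20 tested genes (median 0.05), beside 17.3% and 18.5% of all tested genes. XYLT1, which starts the chain on the core protein, rose from 23.9 ± 0.455 to 29.5 ± 0.646 CPM (0.30 ± 0.06), and also passed with the trend removed (0.21). CHPF2, a chain-lengthening factor, rose by 0.29 ± 0.06 and did not pass with the trend removed (0.14, edgeR adjusted p = 0.0503). CHST12, a chondroitin 4-sulfotransferase, rose by 0.34 ± 0.11 (edgeR adjusted p = 0.0207), but did not pass with the trend removed (0.21, edgeR adjusted p = 0.147). It also did not pass without NG replicate 1 (edgeR adjusted p = 0.0502), NG replicate 3 (0.117), SMG replicate 2 (0.0912) or SMG replicate 3 (0.0781). The linker enzymes B4GALT7 (0.28 ± 0.09) and B3GALT6 (0.23 ± 0.06) passed as higher, but not with the trend removed (B4GALT7 0.18, edgeR adjusted p = 0.0766; B3GALT6 0.08, edgeR adjusted p = 0.350). B4GALT7 also did not pass without SMG replicate 2 (edgeR adjusted p = 0.0996) or SMG replicate 3 (0.0845), nor B3GALT6 without SMG replicate 1 (0.0660). CHST3, a chondroitin 6-sulfotransferase, fell from 34.9 ± 0.823 to 28.3 ± 2.22 CPM (-0.30 ± 0.06), and CHST15, which adds a second sulfate, fell by 0.17 on the log2 scale. CHST15 did not pass without NG replicate 1 (edgeR adjusted p = 0.155), SMG replicate 1 (0.0540) or SMG replicate 2 (0.0684).

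Hyaluronan synthesis and breakdown had 1 higher and 1 lower of 8 tested genes (median 0.10), beside 17.3% and 18.5% of all tested genes. Of the synthases, HAS1 and HAS2 had between 1 and 6 counts per library and were not tested. HAS3 rose from 3.62 ± 0.414 to 4.68 ± 0.288 CPM (0.36 ± 0.13, edgeR adjusted p = 0.0345). It did not pass with the trend removed (0.31, edgeR adjusted p = 0.0747), with DESeq2 (adjusted p = 0.136), without a filter (0.0597), or without NG replicate 2 (0.0785), NG replicate 3 (0.127), SMG replicate 1 (0.102) or SMG replicate 3 (0.0901). HMMR, a hyaluronan receptor that is also a spindle protein of dividing cells, fell from 26.2 ± 1.32 to 21.0 ± 1.30 CPM (-0.32 ± 0.06), or by 0.20 with the trend removed. In the list of other link proteins, tenascins and proteoglycans, 1 of 4 tested genes fell and none rose (median -0.06). The 1 was CSPG5, a membrane proteoglycan of neurons, at 32.7 ± 0.272 and 27.8 ± 1.76 CPM (-0.24 ± 0.06, edgeR adjusted p = 0.00196), and its value was -0.36 with the trend removed.

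The reelin pathway list had 4 higher and 1 lower of 11 tested genes (median 0.08), beside 17.3% and 18.5% of all tested genes. Of the reelin receptors, VLDLR fell from 71.9 ± 1.0 to 62.8 ± 1.79 CPM (-0.20 ± 0.04, edgeR adjusted p = 6.75e-04), opposite in direction to RELN. LRP8, the other receptor, was at 91.3 ± 2.49 and 93.6 ± 3.39 CPM (0.03 ± 0.04, edgeR adjusted p = 0.559). DAB1, the adaptor that both receptors need, was at 16.8 ± 0.850 and 17.7 ± 0.327 CPM (0.08 ± 0.07, edgeR adjusted p = 0.416). Downstream, the exchange factor RAPGEF1 rose by 0.36 ± 0.04, or by 0.21 with the trend of length and GC content removed, and the adaptor CRK rose by 0.20 ± 0.04, or by 0.25 with it removed. The kinase SRC rose by 0.20 ± 0.04 and the reelin-binding integrin subunit ITGA3 by 0.38 ± 0.08, and neither passed with that trend removed (SRC 0.07, edgeR adjusted p = 0.207; ITGA3 0.20, edgeR adjusted p = 0.0568).

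Markers of several cell types were read from the same libraries. Beside the counts of each marker list stand the shares over all tested genes, 17.3% higher and 18.5% lower. The 6 motor neuron markers were all detected, with 5 higher in SMG. The motor neuron markers summed to 552 to 577 CPM in NG and 655 to 679 in SMG. Their values with the trend of length and GC content removed were not taken. The share of G and C was high in MNX1 (68.6%), SLC18A3 (67.2%) and LHX3 (63.8%), but not in ISL1 (45.6%) or SLC5A7 (38.9%). The 6 general neuron markers had 1 higher and 2 lower (8493 to 9111 and 8643 to 8808 CPM). Progenitor and radial glia markers had 2 higher and 3 lower of 8, and their sums overlapped (3675 to 3901 and 3724 to 3858 CPM). Among them FABP7 (-0.42 ± 0.06), PAX6 (-0.20 ± 0.05) and VIM (-0.09 ± 0.03) fell, while NOTCH1 (0.26 ± 0.05) and SOX9 (0.15 ± 0.04) rose. SOX2, NES and HES5 did not pass. With the trend removed FABP7 was at -0.28 and NOTCH1 did not pass (0.04, edgeR adjusted p = 0.351), and values of PAX6 and VIM were not taken. SOX9 did not pass without SMG replicate 2 (edgeR adjusted p = 0.0620). Both tested genes of the 6 astrocyte markers fell, GJA1 by 0.56 and SLC1A3 by 0.16 on the log2 scale, with a list sum of 78.8 to 83.9 CPM in NG and 61.7 to 67.6 in SMG. SLC1A3 did not pass with the trend removed (-0.10, edgeR adjusted p = 0.0961), with DESeq2 (adjusted p = 0.0533), or without NG replicate 1 (0.0555) or SMG replicate 3 (0.101). Radial glia also express both, and the defining astrocyte genes GFAP and AQP4 were below 0.5 CPM in both groups. The part of these cells in the lower VCAN and PTPRZ1 was not tested. Of the 5 inhibitory interneuron markers, 4 were tested, with 1 lower and none higher, and the list summed to 13.9 to 15.2 CPM in NG and 12.2 to 13.6 in SMG. SLC6A5, the most abundant (7.62 ± 0.795 and 7.75 ± 0.295 CPM, 0.02 ± 0.10), and GAD2 (0.04 ± 0.29) did not pass. GAD1 fell (-0.63 ± 0.12), and SLC32A1, with 10, 7 and 2 counts in the NG libraries and 18, 13 and 12 in those of SMG, did not overlap between groups and did not pass (0.87 ± 0.41, edgeR adjusted p = 0.0972). The part of such cells in the higher RELN was not tested. Oligodendrocyte lineage markers had 2 lower and none higher of 5 tested (475 to 479 and 428 to 445 CPM), and the precursor genes PDGFRA and SOX10 were below 1 CPM. Mesenchyme markers summed to 3.78 to 3.88 CPM in NG and 2.36 to 3.50 in SMG with 1 of 2 tested lower. Pluripotency markers summed to 54.9 to 58.0 CPM in NG and 45.8 to 53.9 in SMG, nearly all of it LIN28A. POU5F1 had 1 to 3 counts per library and NANOG 0 to 4, and neither was tested. LIN28A was lower (edgeR adjusted p = 0.0127, or 0.130 without SMG replicate 1). Microglial markers summed to at most 0.832 CPM with AIF1 at 0, and endothelial ones to at most 2.59 CPM with 1 of 3 tested lower.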

How the data were processed

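RNA of 3 NG and 3 SMG libraries was sequenced. The authors deposited raw counts per Ensembl gene. Per the submitters' processing notes, the tools were HISAT2, SAMtools, featureCounts and DESeq2 and the build was hg19, with no versions. The sources used here do not give the annotation, whether strand was used, or how reads that fit several places or genes were handled. Symbols came from a table of gene names and GENCODE 29 (52338 of 57820 genes). Lengths, GC content and exon overlaps are from GENCODE 29, which is on another build, so no coordinates are given beyond those of the RefSeq promoter windows.

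Groups were read off the labels. edgeR's filterByExpr left 17803 genes, which were TMM-scaled and tested with glmQLFit (robust) and glmQLFTest, Benjamini-Hochberg threshold 0.05 (R 4.3.3, edgeR 4.0.16, limma 3.58.1, DESeq2 1.42.0). Totals of 16329907 to 22685870 counts gave a median SE of 0.0524 on the log2 scale among genes averaging at least 10 CPM. The scripts were tested on simulated data. For the length and GC trend, natural splines of each library's deviations entered as offsets; 96.6% of tested genes had both values. All members were named, and from each partner list up to 4 genes that passed with the largest change and a mean of at least 1 CPM, with LRP8, VLDLR, DAB1, PTN, MDK and CD44. Other partner genes and the single markers named were added after their values were seen. The members and lists were chosen with earlier results of these data known. Alternatives changed the scaling, tool, filter, robust estimation, replicate block, length and GC correction, gene set and libraries, and, chosen after seeing the data, the length behind levels per kb.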

Additional observations from a re-analysis of the deposited data

How the results depend on the processing

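The calls of VCAN, NCAN, PTPRZ1, RELN and TNR kept their direction and passed in all 17 alternatives, with ranges of -0.42 to -0.35, 0.43 to 0.58, -0.24 to -0.19, 0.42 to 0.48 and 0.28 to 0.43. BCAN passed in none and ranged from -0.34 to 0.28 as single libraries were left out. With the length and GC offsets, 6 partner genes were higher in place of 13, and over all genes 2719 were higher in place of 3080. With the summed exon length, the NCAN share of lecticans was 35.5% in NG and 51.1% in SMG. Same-numbered libraries did not deviate together (correlations -0.0590, 0.0440 and -0.0566), so the numbers were not taken as pairs; with the replicate block 3077 genes were higher and 3256 lower in place of 3080 and 3296, and 3 members rose and 2 fell as before. Depth limits ACAN, TNC and HAPLN1, which had at most 10 counts in a library. The 0 counts of HAPLN4 are limited by depth and by the unknown handling of reads that fit 2 genes.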
